A study of Mus musculus with 12 samples.

Results

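Migratory dendritic cells of the conventional type 1 lineage (cDC1) that had been sorted from liver were compared with those sorted from duodenum. The comparison used the 4 liver and 4 duodenum libraries of a series of 12 bulk RNA-sequencing libraries. The 4 remaining libraries, from pancreas, were fitted in the same model and are given only as levels. All mice were B6 animals of 6 to 8 weeks with no treatment or engineered allele named, and each library held the cells of 2 mice. The sort took live CD45+ cells that lacked lineage markers and CD11b and carried CD11c, CD103 and high MHC class II. Levels are CPM, counts relative to library size scaled with TMM factors, and are written in the order of libraries 1 to 4 of each tissue. A log2 difference is liver minus duodenum, with its standard error (SE) after the ± sign. The adjusted p is from edgeR's quasi-likelihood test with Benjamini-Hochberg adjustment over all 44624 genes tested, and a gene was called at an adjusted p under 0.05.

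Conventional type 1 DCs take up dying cells and present their antigens on MHC class I to CD8 T cells, a route called cross-presentation. They depend on the transcription factors IRF8, BATF3 and ID2. On leaving a tissue they switch on CCR7, which guides them through lymph to the draining node, together with co-stimulatory and cytokine genes, a change called maturation. In the intestine, DCs that carry CD103 are known for making retinoic acid from vitamin A. In the liver, DCs meet blood that comes from the intestine.

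Library totals were 220.9 to 356.1 M estimated counts. Genes above 1 TPM, a unit that also accounts for transcript length, numbered 16747 to 17504 in liver and 15693 to 16982 in duodenum. Mitochondrial genes took 1.12 to 1.24% of counts in liver and 1.33 to 1.42% in duodenum. On the 1000 most variable genes of the 8 libraries, a first principal component with 39.6% of the variance separated the tissues, and the next, with 13.8%, set duodenum 2 apart at -65.36, where the other libraries lay from -4.54 to 38.38. Results that depend on duodenum 2 are given with and without it. Bulk libraries cannot tell fewer cells of a type from less RNA per cell.

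In all, 3265 genes were called, 7.32% of those tested. Of these, 1502 were higher in liver (3.37% of genes tested) and 1763 higher in duodenum (3.95%). The share higher in liver was 46.0% of the called genes, 35.3% with size factors of DESeq2 in the same fit and 63.5% with libraries scaled by totals alone, which moved the median log2 difference of all genes from 0.10 to 0.02 and 0.25. Without duodenum 2, 1539 genes were higher in liver and 3268 higher in duodenum. For the lists of genes below, a count under another setting is given where it moved by over 1.5 times and by at least 3 genes. The settings are DESeq2, its size factors in the edgeR fit, libraries scaled by totals alone, a stricter filter (at least 1 CPM in 4 libraries), limma on log2 TPM, and each library left out. In addition, liver 2, pancreas 3 and pancreas 4 were left out together. Immunoglobulin genes took 0.10 to 0.12% of their counts, against 0.016% in the other liver and pancreas libraries. They are called the 3 libraries with immunoglobulin reads for short. The 4 duodenum libraries held a larger share, 0.853 to 1.34%, and stayed in the fit without these 3. A test against a 1.5-fold change cannot raise a list count and is not repeated below. It lowered duodenum counts from 42 to 0 in nuclear oxidative phosphorylation, 8 to 0 in glycolysis and 23 to 3 in the actin cytoskeleton. Those of heat-shock, unfolded protein, cell cycle and cholesterol genes fell from 15, 19, 18 and 16 to 3, 4, 4 and 5. Liver counts fell from 29 to 19 in the mature DC programme and 22 to 11 in the interferon response. The duodenum count of immediate-early genes did not move by over 1.5 times. The share called and its direction depended on the level of expression, taken as the mean CPM of the higher tissue. It was 1.22% under 1 CPM, 11.4% at 1 to 10, 18.9% at 10 to 100, 32% at 100 to 1000 and 23.7% above 1000 CPM. Most genes of the DC lists were above 1 CPM, so list counts are to be read beside these shares. A list called at about these shares did not stand out from genes of its level. The share called was 26.7% for NF-kappaB, 28% for adhesion, 30% for pattern recognition, 32.7% for cytokine and 33.3% for chemokine ligand genes. Among genes under 1 CPM, 219 were higher in liver and 104 higher in duodenum. Among those of 100 to 1000 CPM the counts were 110 and 384, and above 1000 CPM they were 5 and 27. Differences of more than 4 on the log2 scale were found for 35 genes higher in liver and 70 higher in duodenum. The ranges of the 4 liver and 4 duodenum libraries did not overlap for 13.5% of all genes tested, called or not, with liver above for 7.6% and liver below for 5.9%.

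The genes with the largest differences came from different processes. On the liver side they included Id3, Cd207, Ccl5, Il12b, Itgal and Il15ra, described with their groups, and Mup22 and Mup7. The latter encode major urinary proteins of hepatocytes, a family of near-identical genes. Mup7 was at 25.1, 17.3, 16 and 19.5 CPM in liver and 0.422, 0.413, 0.274 and 0.103 CPM in duodenum (6.00 ± 0.41, adjusted p = 7.62e-07). Cnr2, the cannabinoid receptor of immune cells, was at 31.8, 32.8, 33.2 and 24.2 CPM and 3.68, 1.9, 1.28 and 1.99 CPM (3.79 ± 0.29, adjusted p = 2.15e-06). Serpinf1, a secreted serpin, was at 30.3, 20.9, 27.5 and 25.2 CPM and 0.199, 0.526, 0.569 and 0.863 CPM (5.59 ± 0.37, adjusted p = 6.60e-07). In these 3 genes the lowest liver library was more than 4-fold above the highest duodenum library. Cnr2 and Serpinf1 were also present in pancreas, at 35.4 ± 6.56 and 23.6 ± 4.51 CPM (SD, n = 4), whereas Mup7 was at 0.425 ± 0.113 CPM there.

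On the duodenum side, the largest differences were in paired receptor genes of the Pilr family, in Cyp26b1 and in immediate-early genes, again described with their groups. Cpm, which encodes carboxypeptidase M, was at 0.492, 0.717, 0.667 and 0.743 CPM in liver and 18.4, 11.8, 11.9 and 11.8 CPM in duodenum (-4.36 ± 0.24, adjusted p = 1.26e-07). Aqp9, a channel for water and glycerol, was at 0.638, 1.68, 0.721 and 1.11 CPM and 16.5, 17.9, 13.4 and 14.5 CPM (-3.91 ± 0.32, adjusted p = 4.55e-06). Both were low in all liver libraries, and ranges did not overlap. Among abundant genes, Tmsb4x, which encodes an actin-binding thymosin, was at 4157, 4668, 5166 and 4672 CPM and 7915, 7239, 7274 and 8134 CPM (-0.71 ± 0.12, adjusted p = 0.00255). Every duodenum library of Tmsb4x was above every liver library.

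**Figure D1:**
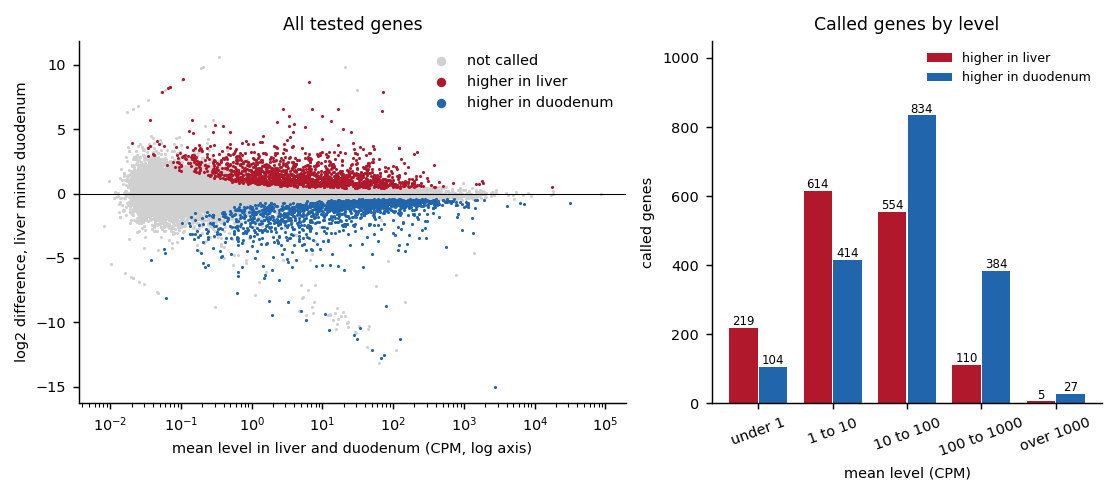
Left, log2 difference (liver minus duodenum) of each tested gene against its mean level over the 8 libraries (CPM, log axis), with called genes in colour and all others in grey. Right, number of called genes in each direction by level, here the mean CPM of the higher tissue. Called genes below 1 CPM were mostly higher in liver (219 against 104), and those above 1000 CPM mostly higher in duodenum (27 against 5).

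The sorted profile was present in both tissues. H2-Ab1, which encodes the MHC class II chain IAβ, was at 17153, 16866, 19768 and 16600 CPM in liver and 19649, 14058, 21130 and 19430 CPM in duodenum. Itgax (CD11c) was at 199.6, 187, 208 and 153 CPM and 234, 181, 296 and 252 CPM. Itgam, which encodes the excluded CD11b, reached 3.42 CPM at most. The ranges of H2-Ab1, Itgax and Itgam overlapped between tissues, and none of them was called. Itgax was called lower in liver without duodenum 2 (adjusted p = 0.0197) and with the stricter filter (adjusted p = 0.0415), and Itgam without liver 4 (adjusted p = 0.0486). Itgae, which encodes CD103, was at 340.4, 366, 335 and 254 CPM in liver and 560.0, 408, 669 and 639.9 CPM in duodenum. Every liver library lay below every duodenum library, and the difference was -0.81 ± 0.17 (adjusted p = 0.00704), so the gated marker itself differed in level.

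Of 24 genes of cDC1 identity, 7 were called higher in liver (against 3.37% of all genes tested) and 2 higher in duodenum (against 3.95%; 5 genes without duodenum 2), with a median log2 difference of 0.38 against 0.10 over all genes tested. The liver count was 15 with library totals and 13 with the stricter filter or limma. The receptors Xcr1 and Clec9a, Irf8 and Batf3 were not called. Irf8 was called lower in liver without duodenum 2 (adjusted p = 0.0373). Clec9a was called higher in liver with library totals (adjusted p = 0.00884) and by limma (adjusted p = 0.0345). Xcr1 had an estimate of 0.19 ± 0.18 (95% interval -0.20 to 0.59), and Wdfy4, which cDC1 need for cross-presentation, had 0.09 ± 0.10 (-0.13 to 0.31), called higher in liver with library totals (adjusted p = 0.0164). Among the genes that did change, Id2, a repressor that cDC1 need to develop, was at 2438, 2444, 2519 and 2252 CPM in liver and 1196, 797, 1408 and 1570.1 CPM in duodenum. All 4 liver libraries were above all 4 duodenum libraries, and the difference was 0.96 ± 0.17 (adjusted p = 0.00305). Cd207, the lectin langerin found on some tissue cDC1, was at 33.2, 29.1, 41.1 and 27.6 CPM in liver and 0.0237, 0.0181, 0.463 and 0.923 CPM in duodenum (6.53 ± 0.98, adjusted p = 0.00168), and at 65.1 ± 14.5 CPM in pancreas (SD, n = 4). Gcsam, an adaptor of lymphocyte motility, also had separate ranges, at 227, 218, 255 and 195 CPM in liver and 25.2, 14, 19.2 and 19.9 CPM in duodenum (3.52 ± 0.17, adjusted p = 8.53e-08). Cd8a, a marker of lymphoid-tissue cDC1, had the opposite order, at 32, 20.3, 27.9 and 29.3 CPM in liver and 73.2, 58.8, 99.8 and 86.4 CPM in duodenum (-1.54 ± 0.23, adjusted p = 0.000656), with no overlap.

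Of 19 genes that mark type 2 DCs, 10 were higher in duodenum and 1, Ccr2, was higher in liver. Sirpa, an inhibitory receptor for CD47, was at 1.58, 0.894, 2.2 and 1.19 CPM in liver and 5.66, 2.96, 11.8 and 8.16 CPM in duodenum (-2.29 ± 0.42, adjusted p = 0.00368). Irf4, a transcription factor of type 2 DCs, was at 1.54, 1.82, 1.26 and 2.04 CPM and 7.47, 12.3, 10.6 and 6.85 CPM (-2.48 ± 0.30, adjusted p = 0.000143). Neither gene's ranges overlapped. The lectin gene Clec10a was at 0.435, 0.846, 0.801 and 0.878 CPM in liver and 5.7, 10.9, 4.3 and 4.77 CPM in duodenum (-3.12 ± 0.43, adjusted p = 0.000364). Duodenum libraries were higher in each case, and their share of type 2 cells was not tested. Irf4 is also in the list of plasma cell markers described below, and the part of plasma cells in its level was not tested.

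Transcription factors of DC lineage and tissue state were higher in liver for 9 of 65 genes and higher in duodenum for 19. The first of these counts was 5 without liver 1, duodenum 1 or the 3 libraries with immunoglobulin reads, 4 without liver 2 and 15 with library totals. The share called was 43.1%, against 18.9% of genes at 10 to 100 CPM and 32% at 100 to 1000 CPM. Called genes of these levels also leaned to duodenum, at 834 against 554 and 384 against 110. Id3, an inhibitor of E proteins and a relative of Id2, was at 135, 136, 161 and 139 CPM in liver and 0.545, 0.477, 1.07 and 0.378 CPM in duodenum. Its level in pancreas was 0.52 ± 0.401 CPM (SD, n = 4), so the liver libraries stood alone among the 3 tissues, and the difference from duodenum was 7.85 ± 0.58 (adjusted p = 1.81e-06). Irf7, which amplifies type I interferon responses, was at 125, 126, 120.2 and 106 CPM in liver and 36.2, 12.4, 56.2 and 39.8 CPM in duodenum (1.72 ± 0.32, adjusted p = 0.00421). The lowest liver library was above the highest duodenum library for both genes.

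Factors higher in duodenum included sensors of the environment. Ahr, the receptor for dietary and microbial indoles, was at 34.2, 41.6, 40.2 and 29.4 CPM in liver and 99, 54.5, 93.3 and 82.1 CPM in duodenum (-1.18 ± 0.19, adjusted p = 0.00137). Klf4 was at 20.3, 22, 23.3 and 17.7 CPM and 214, 135, 209 and 208 CPM (-3.20 ± 0.27, adjusted p = 4.86e-06). Hic1, a retinoic acid-responsive repressor, was at 16.4, 13.4, 28.2 and 19.9 CPM and 334, 208, 298 and 329 CPM (-3.91 ± 0.60, adjusted p = 0.00117). None of these had overlapping ranges. Zeb2 and Tcf4, which act in type 2 and plasmacytoid DCs, were not called, with estimates of -0.19 ± 0.21 (95% interval -0.65 to 0.26) and -0.18 ± 0.21 (-0.62 to 0.26).

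**Figure D2:**
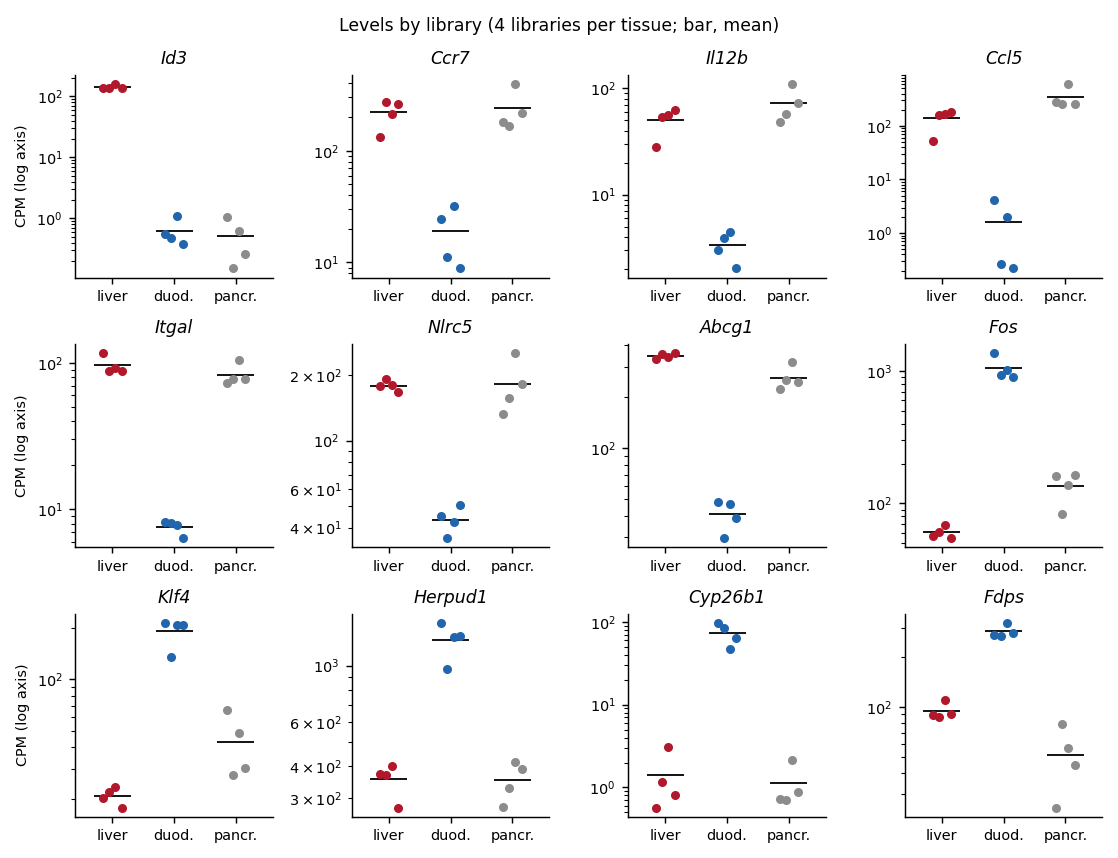
Level of 12 genes named in the text in each library (CPM, log axis) for liver, duodenum and pancreas, 1 point per library, with a bar at the mean of the 4 libraries. Id3 stands apart in liver alone, Ccr7, Il12b, Itgal, Nlrc5 and Abcg1 are higher in liver and pancreas than in duodenum, and Fos, Klf4 and Herpud1 are higher in duodenum.

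The mature DC programme was the list with most members higher in liver, though all lists were chosen with earlier results of these data known. Of 50 genes, 29 were called higher in liver and 3 higher in duodenum (5 without duodenum 2), with a median log2 difference of 1.35 against 0.10 over all genes. Ccr7, the lymph node homing receptor, was at 132, 272, 213 and 264 CPM in liver and 24.3, 11.1, 32.2 and 8.84 CPM in duodenum (3.53 ± 0.43, adjusted p = 0.000125). Fscn1, the actin bundler of mature DCs, was at 55.1, 124, 105 and 113 CPM and 9.48, 8.31, 11.7 and 5.86 CPM (3.49 ± 0.37, adjusted p = 4.00e-05). Both genes were lowest, within liver, in liver 1, and even that library was more than 4-fold above the highest duodenum library. Il12b, the shared subunit of IL-12 and IL-23, was at 27.8, 53.7, 56.4 and 62.8 CPM in liver and 2.99, 3.88, 4.48 and 2.02 CPM in duodenum (3.91 ± 0.34, adjusted p = 7.69e-06). Il15ra, which presents IL-15 to T and NK cells, was at 55.8, 65.4, 55.8 and 72.4 CPM and 5.35, 1.76, 6.34 and 6.69 CPM (3.63 ± 0.36, adjusted p = 2.17e-05). Ccl5, which attracts T cells, was at 52.4, 157, 165 and 180.0 CPM and 4.11, 0.266, 1.96 and 0.219 CPM (6.41 ± 1.02, adjusted p = 0.00305). Liver and duodenum ranges did not overlap for any of these genes, and in duodenum Ccl5 varied between libraries by more than 10-fold.

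Surface molecules of maturation did not move as one group. Cd40, the receptor for T cell help, was at 40.9, 67, 67.1 and 49.7 CPM in liver and 25.1, 15.5, 35.4 and 25.6 CPM in duodenum (1.15 ± 0.26, adjusted p = 0.0156). That call was lost without liver 2, liver 3 or duodenum 4 (adjusted p = 0.0643, 0.0608 and 0.0529) and without the 3 libraries with immunoglobulin reads (adjusted p = 0.0621). Pdcd1lg2, which encodes the PD-1 ligand PD-L2, was at 4.98, 8.47, 9.27 and 10.6 CPM and 3.22, 1.14, 2.73 and 2.26 CPM (1.83 ± 0.34, adjusted p = 0.0037). By contrast Cd86, a ligand of CD28, was at 220.0, 196, 199 and 188 CPM in liver and 239, 156, 254 and 248 CPM in duodenum, with overlapping ranges. Its difference was -0.16 ± 0.15, and its 95% interval of -0.48 to 0.16 leaves out any 2-fold change. It was called lower in liver without duodenum 2 (adjusted p = 0.029). Cd80, the other CD28 ligand, had -0.11 ± 0.23 (95% interval -0.59 to 0.38), Cd83 -0.10 ± 0.21 (-0.55 to 0.34), and Cd274, which encodes PD-L1, 0.33 ± 0.33 (-0.38 to 1.05). The NF-kappaB gene Nfkb2 had -0.08 ± 0.22 (-0.54 to 0.38). None of Cd80, Cd83, Cd274 and Nfkb2 was called.

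Across 48 co-stimulatory and inhibitory ligands and receptors, 10 were higher in liver and 5 higher in duodenum. The first count was 6 without liver 2, liver 4 or duodenum 4 and 5 without liver 3, and the second was 10 without duodenum 2 and 3 without duodenum 3. Tnfrsf4, which encodes OX40, was at 7.63, 11.5, 9.83 and 11.5 CPM in liver and 0.649, 0.913, 1.25 and 1.68 CPM in duodenum (3.17 ± 0.31, adjusted p = 2.41e-05), with no overlap. Jag2, a ligand of Notch, was at 10.7, 7.24, 8.3 and 10.2 CPM and 32.3, 24.3, 20.4 and 18 CPM (-1.38 ± 0.20, adjusted p = 0.000506), with every duodenum library above every liver library. Regulators of NF-kappaB were called 4 of 30 in each direction, the liver count being 2 without liver 2. Traf1, a signalling adaptor, was higher in liver at 117, 199, 179 and 181 CPM and 73.3, 50.5, 87.4 and 54.3 CPM (1.35 ± 0.23, adjusted p = 0.00225), and Nfkbia, the inhibitor that NF-kappaB induces, was higher in duodenum at 157, 136, 152 and 134 CPM and 235, 197, 242 and 228 CPM (-0.64 ± 0.11, adjusted p = 0.00237).

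Members of the mature programme that went the other way included Apol7c, an apolipoprotein L of cDC1, at 203, 339, 373 and 235 CPM in liver and 2227, 2035, 2764 and 2708 CPM in duodenum (-3.08 ± 0.49, adjusted p = 0.00145). Serpinb6b, a protease inhibitor, was at 183, 253, 190.3 and 192 CPM and 379, 277, 510.0 and 503 CPM (-1.03 ± 0.22, adjusted p = 0.00989). In both cases all duodenum libraries exceeded all liver libraries. Apol7c in pancreas was at 24.5 ± 20.6 CPM (SD, n = 4), below liver.

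**Figure D3:**
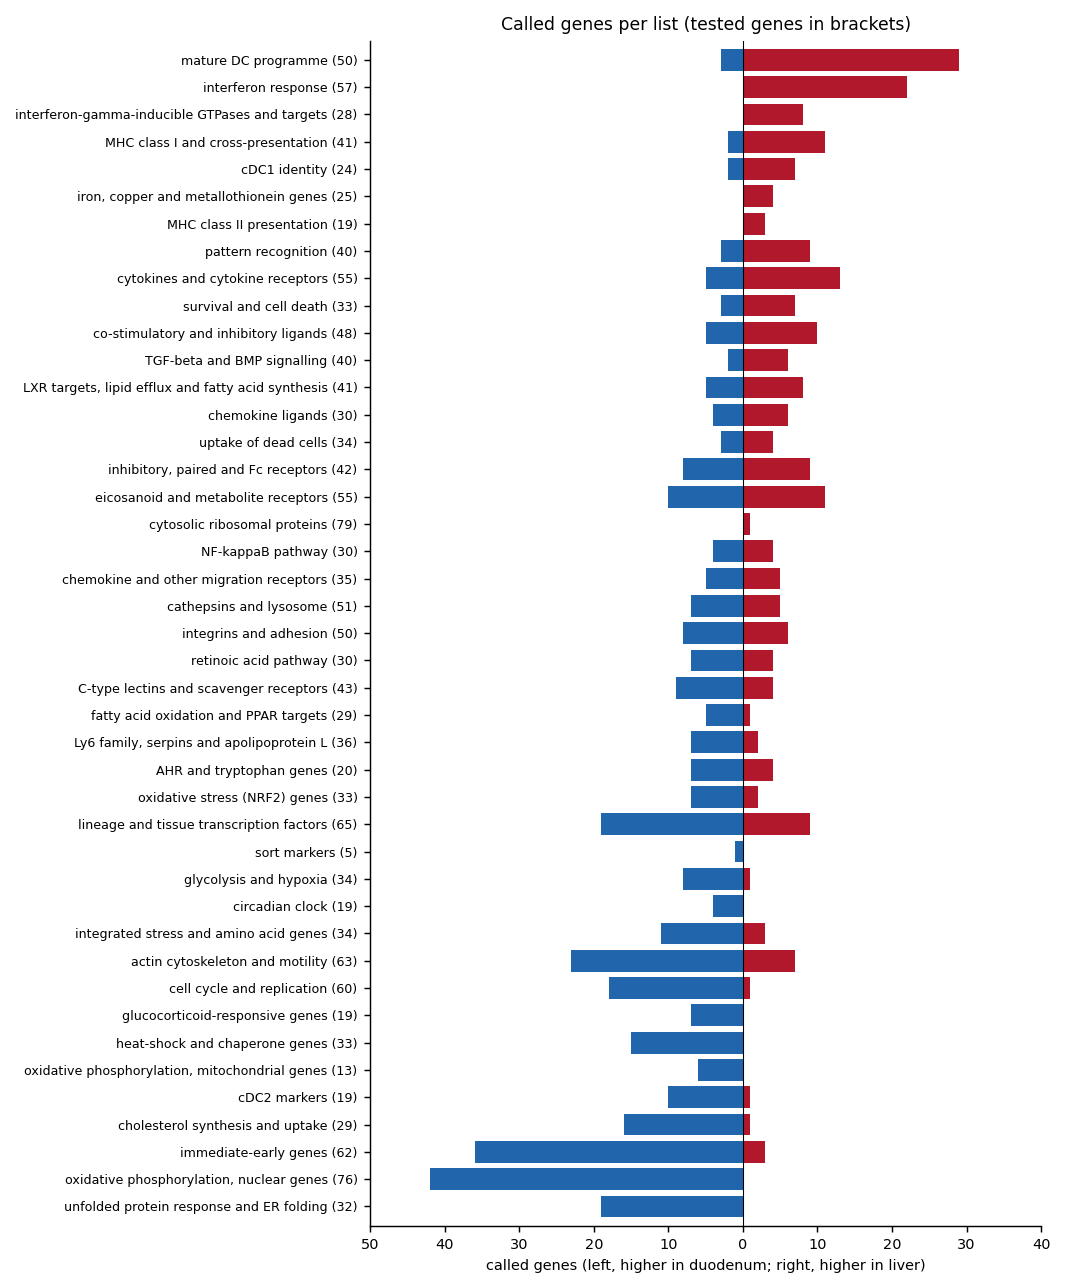
Number of called genes in each list of DC genes, to the right those higher in liver and to the left those higher in duodenum, with the number of list genes tested in brackets. The mature DC programme (29 against 3) and the interferon response (22 against 0) lean to liver, and immediate-early genes (3 against 36), heat-shock genes (0 against 15) and cholesterol synthesis (1 against 16) lean to duodenum. Lists were chosen with earlier results of these data known.

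Antigen presentation was described in lists for each MHC class, and no difference between the lists was tested. Of 41 genes of MHC class I and cross-presentation, 11 were higher in liver and 2 higher in duodenum (6 without duodenum 2 and 5 with the stricter filter), and the median log2 difference was 0.04. The classical heavy chain H2-K1 was at 1856, 1909.5, 1874 and 1794 CPM in liver and 1188, 953, 1212 and 1186 CPM in duodenum (0.71 ± 0.12, adjusted p = 0.00174). B2m, their shared light chain, was at 1842, 2081, 2187 and 2104 CPM and 1257, 884, 1315 and 1481 CPM (0.73 ± 0.16, adjusted p = 0.0109), a call lost with size factors of DESeq2 in place of TMM (adjusted p = 0.0556). It was also lost without liver 2, pancreas 3 and pancreas 4, the libraries outside duodenum with most immunoglobulin reads (adjusted p = 0.0674). H2-D1, the other classical chain, was at 2348, 2372, 2461 and 2302 CPM and 1408, 985, 1532 and 1466 CPM (0.81 ± 0.13, adjusted p = 0.00168). Nlrc5, the transactivator of class I genes, had the widest gap of the list among genes higher in liver, at 177, 191, 179.5 and 166 CPM and 45.4, 35.9, 42.4 and 50.7 CPM (2.03 ± 0.18, adjusted p = 8.67e-06). No liver library overlapped duodenum for H2-K1, B2m, H2-D1 or Nlrc5. The Qa-2 genes H2-Q6 (1.59 ± 0.14, adjusted p = 1.09e-05) and H2-Q7 (1.14 ± 0.14, adjusted p = 0.000111) were also higher in liver, and reads of these near-identical copies can be split between them.

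Among genes of peptide supply for class I, the transporter gene Tap1 was at 387, 405, 419 and 392 CPM in liver and 329, 302, 353 and 362 CPM in duodenum, with 0.25 ± 0.13 (95% interval -0.03 to 0.53). It was not called, but was called higher in liver with library totals (adjusted p = 0.00654) and by limma (adjusted p = 0.0147). The immunoproteasome genes Psmb8 (-0.12 ± 0.13, -0.41 to 0.16) and Psmb9 (0.00 ± 0.14, -0.29 to 0.29) and the loading factor Tapbp (-0.22 ± 0.15, -0.54 to 0.09) were not called. Tapbp was called lower in liver without duodenum 2 and pancreas 1 together (adjusted p = 0.0261). Calr, the chaperone of empty class I molecules, was lower in liver, at 308, 371, 391 and 270.1 CPM and 518, 481, 535 and 617 CPM (-0.68 ± 0.15, adjusted p = 0.00994). Cybb, the NOX2 subunit that slows acidification of phagosomes, was at 7.3, 4.67, 3.91 and 7.65 CPM in liver and 25.9, 14.7, 44.3 and 44.6 CPM in duodenum, with every liver library below (-2.46 ± 0.33, adjusted p = 0.000272).

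Of 19 genes of MHC class II presentation, 3 were higher in liver and 0 higher in duodenum (1 at an unadjusted p under 0.05, 0 by DESeq2, 0 by limma), or 1 without duodenum 2, with a median log2 difference of -0.08. The liver count was 9 with library totals and 6 by limma. The chains H2-Aa (0.07 ± 0.13, 95% interval -0.21 to 0.35) and H2-Eb1 (0.14 ± 0.13, -0.15 to 0.42), the invariant chain Cd74 (-0.12 ± 0.15, -0.44 to 0.21) and the transactivator Ciita (-0.14 ± 0.11, -0.37 to 0.09) were not called, and their intervals leave out any 2-fold change. With library totals, H2-Aa and H2-Eb1 were called higher in liver (adjusted p = 0.0249 and 0.00455), H2-Eb1 also by limma (adjusted p = 0.0297). The called genes were Cd63, a tetraspanin of late endosomes, at 22.9, 42.7, 47.5 and 35.6 CPM in liver and 3.29, 7.0, 4.19 and 2.7 CPM in duodenum (3.11 ± 0.36, adjusted p = 9.24e-05), and H2-Eb2, a class II chain of low level, at 9.29, 9.7, 10.9 and 7.19 CPM and 2.28, 1.39, 1.37 and 3.41 CPM (2.14 ± 0.33, adjusted p = 0.00103). The third, the endosomal protease gene Lgmn, had 0.83 ± 0.16 (adjusted p = 0.00543), a call lost when the same 3 libraries were left out (adjusted p = 0.0564).

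**Figure D4:**
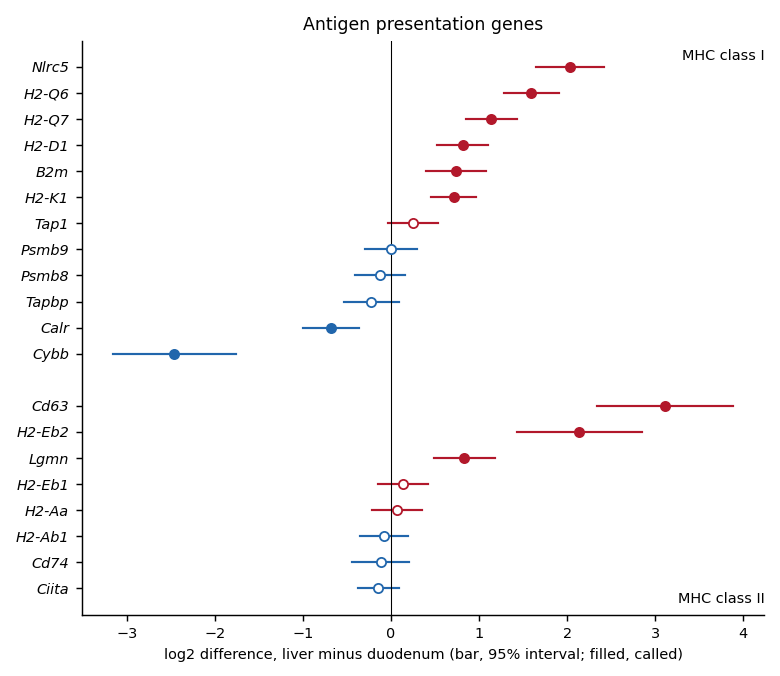
Log2 difference (liver minus duodenum) of genes of MHC class I (top) and class II (bottom) presentation, with bars for the 95% interval of each difference and filled points for called genes. Heavy chains and Nlrc5 lie to the right of 0, and most genes of peptide supply and class II lie across it.

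Of 35 receptors of chemokines and other guidance cues, 5 were higher in liver and 5 higher in duodenum (28.6% called, against 7.32% of all genes tested). Ccr2, which follows inflammatory chemokines, was at 361, 389.8, 405 and 405 CPM in liver and 51.6, 26.8, 54 and 34.3 CPM in duodenum (3.23 ± 0.21, adjusted p = 5.03e-07). Cxcr3, a receptor for interferon-induced chemokines, was at 79.1, 73, 89.6 and 61.3 CPM and 38, 26.8, 41.6 and 32.3 CPM (1.13 ± 0.17, adjusted p = 0.000719). Ltb4r1, the receptor for leukotriene B4, was at 2.16, 2.06, 5.05 and 3.16 CPM and 0.781, 0.258, 0.291 and 0.62 CPM (2.68 ± 0.37, adjusted p = 0.000356), and reached 32.8 ± 2.05 CPM in pancreas (SD, n = 4). Each was higher in every liver library. On the duodenum side, Ccr9, the receptor for the small intestinal chemokine CCL25, was at 37.2, 35.2, 22.8 and 33.5 CPM in liver and 68.4, 52.4, 107 and 78.3 CPM in duodenum (-1.25 ± 0.28, adjusted p = 0.0128). Gpr183, which senses oxysterols, was at 18.9, 9.57, 15.5 and 10.2 CPM and 41.5, 29.9, 45.3 and 34.8 CPM (-1.48 ± 0.22, adjusted p = 0.000794). Ccrl2, which binds chemerin without signalling, was at 6.12, 5.74, 8.5 and 7.45 CPM and 39.9, 35, 38.7 and 27.7 CPM (-2.35 ± 0.18, adjusted p = 2.37e-06). Ranges did not overlap for any of these receptors.

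Chemokine ligands were called higher in liver for 6 of 30 genes and higher in duodenum for 4 (2 without liver 1, duodenum 1, duodenum 3, pancreas 2 or pancreas 3). Ccl17, which attracts CCR4-bearing T cells, was at 27.3, 27.7, 31.3 and 28.6 CPM in liver and 15.6, 3.46, 10.7 and 9.79 CPM in duodenum (1.54 ± 0.33, adjusted p = 0.00921). Ccl4, an inflammatory chemokine, had the opposite order, at 2.42, 1.52, 1.07 and 1.8 CPM and 25.8, 16.3, 27.4 and 19.3 CPM (-3.70 ± 0.42, adjusted p = 7.84e-05), as did the neutrophil attractant Cxcl2, at 0.133, 0.0265, 0.173 and 0.222 CPM and 6.3, 7.87, 8.13 and 6.75 CPM (-5.73 ± 0.74, adjusted p = 0.00023). Libraries of the tissues did not overlap for these 3 ligands.

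Adhesion genes were called in both directions, with 6 of 50 higher in liver (3 without the 3 libraries with immunoglobulin reads) and 8 higher in duodenum (14 without duodenum 2). The share called was 28%, against 18.9% of genes at 10 to 100 CPM and 32% at 100 to 1000 CPM. Itgal, the LFA-1 chain that binds ICAM-1, was at 116, 88.5, 92.7 and 88.1 CPM in liver and 8.14, 8.12, 7.84 and 6.37 CPM in duodenum (3.66 ± 0.17, adjusted p = 5.07e-08). Its partner chain Itgb2 was at 409, 359, 409.7 and 348 CPM and 425, 292, 516 and 461 CPM and was not called (-0.15 ± 0.16, 95% interval -0.50 to 0.20), except as lower in liver without duodenum 2 and pancreas 1 together (adjusted p = 0.0464). Thus 1 chain of LFA-1 differed by more than 10-fold, and libraries of the tissues overlapped for the other. Selplg, the P-selectin ligand, was at 385, 466, 446 and 396 CPM and 197, 193, 157 and 187 CPM (1.21 ± 0.12, adjusted p = 3.24e-05), and F11r, which encodes the junction molecule JAM-A, was at 20.7, 18.2, 32.1 and 19.2 CPM and 4.47, 5.3, 4.2 and 6.47 CPM (2.14 ± 0.21, adjusted p = 2.41e-05). The epithelial adhesion genes Epcam, at 7.08, 5.81, 3.9 and 6.48 CPM in liver and 24.6, 15.5, 39.1 and 29.3 CPM in duodenum (-2.22 ± 0.26, adjusted p = 9.91e-05), and Cdh1 (-1.97 ± 0.44, adjusted p = 0.0128) were higher in duodenum. Itgb7, the partner of CD103, was not called (-0.09 ± 0.12, 95% interval -0.35 to 0.18).

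Cytokines and their receptors were higher in liver in 13 of 55 cases and higher in duodenum in 5, a count that fell to 3 without liver 2, liver 3, liver 4 or duodenum 1 and rose to 9 without duodenum 2. Among receptors, Csf2rb2, a beta chain of the IL-3 receptor, was at 25.9, 25.5, 27.7 and 24.9 CPM in liver and 4.75, 3.76, 4.1 and 4.01 CPM in duodenum (2.65 ± 0.16, adjusted p = 3.19e-07). Il6ra was at 90.7, 80.5, 72.4 and 60.7 CPM and 22.9, 13.7, 31.7 and 26.2 CPM (1.69 ± 0.21, adjusted p = 0.000164), and Il21r at 15.5, 27.1, 20.01 and 25.8 CPM and 5.95, 3.93, 5.33 and 4.76 CPM (2.15 ± 0.29, adjusted p = 0.000321). All liver libraries were above all duodenum libraries for the 3 receptors. The IL-1 family was divided. Il18 was at 34.8, 28.4, 37.2 and 27.2 CPM in liver and 3.59, 2.88, 4.91 and 2.43 CPM in duodenum (3.21 ± 0.22, adjusted p = 7.49e-07), while Il1b was at 3.06, 5.53, 5.42 and 3.97 CPM and 25.1, 14.6, 32.4 and 15 CPM (-2.27 ± 0.45, adjusted p = 0.00555). Il1r2, the decoy receptor that captures IL-1, was higher in duodenum together with Il1b, at 1.2, 1.23, 0.418 and 1.13 CPM in liver and 25.7, 22.5, 31.4 and 24.3 CPM in duodenum (-4.70 ± 0.50, adjusted p = 4.28e-05).

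Of 40 genes of pattern recognition, 9 were higher in liver (14 with library totals or limma) and 3 higher in duodenum (6 without duodenum 2). Tlr2, a receptor for bacterial lipoproteins, was at 14, 14.9, 18.9 and 12.1 CPM in liver and 2.08, 0.823, 1.77 and 2.33 CPM in duodenum (3.10 ± 0.28, adjusted p = 1.17e-05). Tlr4, the receptor for lipopolysaccharide, was at 4.78, 6.69, 2.34 and 7.38 CPM and 1.54, 1.09, 0.855 and 0.684 CPM (2.34 ± 0.38, adjusted p = 0.00134). Cd14, which hands lipopolysaccharide to TLR4, went the other way, at 1.27, 1.55, 1.56 and 0.308 CPM in liver and 12.2, 9.72, 9.86 and 10.6 CPM in duodenum (-3.18 ± 0.42, adjusted p = 0.000248). Tlr12, a receptor for a protein of Toxoplasma, was at 107, 95.1, 133 and 99.5 CPM and 220.3, 184, 271 and 248 CPM (-1.09 ± 0.21, adjusted p = 0.00453). For each of these 4 genes the libraries of the tissues did not overlap. The sensor of viral RNA Tlr3, a gene of cDC1, was not called (-0.25 ± 0.14, 95% interval -0.56 to 0.06), except as lower in liver without duodenum 2 (adjusted p = 0.0443).

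Inhibitory, paired and Fc receptors were higher in liver for 9 of 42 genes and higher in duodenum for 8. Fcgr2b, the inhibitory IgG receptor, was at 65.3, 36.9, 51.4 and 51.2 CPM in liver and 6.72, 3.21, 8.68 and 4.76 CPM in duodenum (3.13 ± 0.27, adjusted p = 6.08e-06). Cd300c was at 13.5, 14.8, 15.7 and 12.5 CPM and 2.5, 2.98, 2.53 and 4.44 CPM (2.18 ± 0.22, adjusted p = 3.24e-05). Tyrobp, the adaptor DAP12 that activating receptors share, was at 284, 233, 376 and 308 CPM and 133, 91.1, 122 and 117 CPM (1.37 ± 0.17, adjusted p = 0.000121). Liver was higher in every library for all 3. The paired receptors Pilra, at 0.542, 0.401, 1.02 and 0.739 CPM in liver and 9.13, 13.1, 16.3 and 14.7 CPM in duodenum (-4.31 ± 0.32, adjusted p = 1.61e-06), and Pilrb1 (-5.93 ± 0.67, adjusted p = 7.09e-05) were near 0 in liver, and near-identical Pilrb copies may share reads. Siglece, a receptor for sialic acids, was at 0.306, 0.422, 0.33 and 0.349 CPM and 2.84, 2.33, 4.5 and 4.86 CPM (-3.37 ± 0.43, adjusted p = 0.000183).

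C-type lectins and scavenger receptors were higher in duodenum for 9 of 43 genes and higher in liver for 4, of which Cd207 has been described. The second count was 10 with library totals and 8 by limma. Klrb1b, an inhibitory lectin-like receptor, was at 11.6, 7.91, 15.4 and 11.8 CPM in liver and 1.22, 0.358, 2.6 and 1.37 CPM in duodenum (3.08 ± 0.43, adjusted p = 0.000444), and Clec1a was at 57.9, 62, 65 and 54.9 CPM and 21.7, 14.7, 21.5 and 23.1 CPM (1.57 ± 0.15, adjusted p = 2.21e-05). Liver was higher in every library of both genes. Cd209d, of the DC-SIGN family, was at 0.173, 0.1, 0.0537 and 0.394 CPM and 12.9, 1.63, 3.12 and 6.72 CPM (-5.09 ± 0.79, adjusted p = 0.00104), low in all liver libraries. In the uptake of dead cells, 4 of 34 genes were higher in liver (8 with library totals or limma and 7 with the stricter filter) and 3 higher in duodenum (1 without the 3 libraries with immunoglobulin reads). Timd4, a receptor for phosphatidylserine, was at 2.5, 9.48, 4.05 and 4.44 CPM and 0.919, 0.784, 1.63 and 1.96 CPM (1.95 ± 0.39, adjusted p = 0.00664), and Cd300a, an inhibitory receptor for the same lipid, was at 18.6, 12.3, 14 and 15.2 CPM and 26.6, 19.1, 52.3 and 33.3 CPM (-1.13 ± 0.25, adjusted p = 0.0131), so the pair had opposite orders with no overlap. The call of Cd300a was lost without liver 2, pancreas 3 and pancreas 4 (adjusted p = 0.0831).

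In the interferon response, 22 of 57 genes were higher in liver and 0 were higher in duodenum (1 at an unadjusted p under 0.05, 0 by DESeq2, 0 by limma), with a median log2 difference of 0.72. The liver count was 35 with library totals or the stricter filter and 14 without the 3 libraries with immunoglobulin reads. Mx1, a GTPase against influenza viruses, was at 73, 76.9, 73 and 74.1 CPM in liver and 16, 11, 17.3 and 13.3 CPM in duodenum (2.37 ± 0.16, adjusted p = 8.16e-07). Ly6a, which encodes Sca-1, was at 78.9, 80.1, 75.5 and 94.3 CPM and 11.4, 3.68, 9.0 and 13.3 CPM (3.14 ± 0.35, adjusted p = 7.29e-05). The nucleic acid-binding genes Ifi203, at 49.8, 52.6, 48.4 and 40.2 CPM and 16.2, 11.9, 16.1 and 8.35 CPM (1.86 ± 0.19, adjusted p = 3.63e-05), and Ifi211, at 177, 175, 176 and 151 CPM and 79.1, 39.8, 76.2 and 72.4 CPM (1.35 ± 0.20, adjusted p = 0.000707), did not overlap between tissues, and their neighbour Ifi207 had 1.42 ± 0.19 (adjusted p = 0.000334). Isg15, the ubiquitin-like modifier, was at 12.6, 21, 17.5 and 22.2 CPM in liver and 13.7, 15.2, 26.3 and 20.5 CPM in duodenum, with overlapping ranges (-0.05 ± 0.25, 95% interval -0.58 to 0.49). Ifit1 (0.18 ± 0.95, -1.88 to 2.23) and Ifit3 (-0.25 ± 0.63, -1.59 to 1.09) varied widely within each tissue and were not called.

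Promoters of 43 of these 57 genes were found in the RefSeq table (build GRCm38.p6, which is not the authors' build). The interferon-stimulated response element was searched as GAAANNGAA on both strands of the 250 bases before the start. It was present in 20 of the 43 (46.5%), against 8.18% of 27025 genes. Among the genes higher in liver it was in 6 of 15, and among those not called in 14 of 28. The motif thus did not separate the genes that changed from those that did not. The 160 bases before the start are shown for the 3 neighbours that rose in liver and for Isg15, which did not, because all 4 carry the element, in capitals, within 80 bases of the start. In Isg15, 3 matches overlap one another.
Ifi203, chr1:173942493-173942652, minus strand: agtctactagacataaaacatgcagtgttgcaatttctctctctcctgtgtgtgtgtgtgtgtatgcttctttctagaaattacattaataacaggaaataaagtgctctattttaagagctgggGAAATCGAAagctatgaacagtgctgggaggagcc
Ifi207, chr1:173741810-173741969, minus strand: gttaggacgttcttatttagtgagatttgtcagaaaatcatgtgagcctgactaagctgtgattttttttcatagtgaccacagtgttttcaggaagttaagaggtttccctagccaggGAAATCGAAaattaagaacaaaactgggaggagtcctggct
Ifi211, chr1:173913047-173913206, minus strand: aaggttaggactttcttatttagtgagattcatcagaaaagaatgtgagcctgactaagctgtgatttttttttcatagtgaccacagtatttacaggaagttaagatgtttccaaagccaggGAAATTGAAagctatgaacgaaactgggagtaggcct
Isg15, chr4:156200819-156200978, minus strand: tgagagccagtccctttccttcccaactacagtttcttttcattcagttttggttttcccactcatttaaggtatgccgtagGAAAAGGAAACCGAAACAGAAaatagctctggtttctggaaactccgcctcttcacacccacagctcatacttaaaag

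Of 28 genes induced by interferon-gamma, 8 were higher in liver and 0 in duodenum (2 at an unadjusted p under 0.05, 1 by DESeq2, 0 by limma). The liver count was 4 without liver 1, liver 2, liver 4 or duodenum 3 or with size factors of DESeq2, and 5 without duodenum 1, and without liver 2, duodenum 2 or duodenum 4 there was 1 gene higher in duodenum. The GTPases Gbp4, at 24.6, 23.7, 23.4 and 18.5 CPM in liver and 5.36, 4.54, 6.64 and 5.41 CPM in duodenum (2.04 ± 0.25, adjusted p = 0.000146), and Iigp1 (2.64 ± 0.33, adjusted p = 0.000174) act against intracellular pathogens. Both were higher in every liver library.

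Immediate-early genes, which are transcribed within minutes of a stimulus, were the reverse of the mature programme. Of 62, 36 were higher in duodenum and 3 higher in liver, with a median of -1.04. Fos, an AP-1 subunit, was at 57.2, 61.3, 68.8 and 54.8 CPM in liver and 1364, 943, 1017 and 905 CPM in duodenum (-4.13 ± 0.22, adjusted p = 1.26e-07). Egr1 was at 16, 10.2, 14.4 and 8.91 CPM and 327, 299, 270.4 and 219.6 CPM (-4.49 ± 0.23, adjusted p = 1.22e-07), and the orphan nuclear receptor Nr4a2 at 4.81, 4.68, 2.35 and 3.22 CPM and 114, 131, 82.3 and 62.3 CPM (-4.69 ± 0.39, adjusted p = 4.86e-06). All duodenum libraries were more than 10-fold above all liver libraries for the 3 genes. Feedback genes of the same kind moved with them. Dusp1, a phosphatase that ends MAP kinase signalling, was at 41.5, 30.4, 28 and 27.4 CPM in liver and 406, 236, 273 and 284 CPM in duodenum (-3.24 ± 0.21, adjusted p = 5.03e-07), and Ppp1r15a, which restores translation after stress, was at 21.2, 19.7, 16 and 27.6 CPM and 193, 179, 188 and 161 CPM (-3.09 ± 0.21, adjusted p = 8.16e-07). Gadd45b went against the list, at 16.5, 31, 31.7 and 35.9 CPM in liver and 8.1, 9.84, 10.1 and 6.23 CPM in duodenum (1.75 ± 0.30, adjusted p = 0.00201).

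The cyclic AMP response element TGACGTCA, a palindrome, was in the 250 bases before the start of 6 of 47 immediate-early genes with a promoter in the table (12.8%), against 1.77% of all genes. Of the 29 higher in duodenum it was in 4. The 160 bases before the start of Dusp1 and Ppp1r15a are shown because both carry the full element, in capitals, at different distances from the start.
Dusp1, chr17:26508473-26508632, minus strand: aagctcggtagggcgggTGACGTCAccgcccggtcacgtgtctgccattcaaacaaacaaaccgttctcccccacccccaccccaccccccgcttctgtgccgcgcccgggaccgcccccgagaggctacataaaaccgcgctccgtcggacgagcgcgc
Ppp1r15a, chr7:45526269-45526428, minus strand: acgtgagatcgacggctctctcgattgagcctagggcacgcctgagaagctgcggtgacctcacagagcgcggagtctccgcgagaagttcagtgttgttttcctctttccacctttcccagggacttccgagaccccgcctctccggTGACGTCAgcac

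Heat-shock and chaperone genes were higher in duodenum in 15 of 33 cases and higher in liver in 0 (0 at an unadjusted p under 0.05, 0 by DESeq2, 0 by limma). Hsp90aa1, the inducible HSP90, was at 95.3, 75.5, 109 and 91.6 CPM in liver and 233, 377, 247 and 280.0 CPM in duodenum (-1.61 ± 0.20, adjusted p = 0.000135). The mitochondrial chaperonin genes Hspd1, at 93.6, 108, 116 and 99.7 CPM and 168, 144, 209 and 204 CPM (-0.80 ± 0.14, adjusted p = 0.00251), and Hspe1, at 151, 156, 191 and 176 CPM and 249.8, 283, 262 and 284 CPM (-0.68 ± 0.13, adjusted p = 0.00438), changed by similar amounts. No liver library reached the lowest duodenum library of any of them. A heat-shock element searched as GAANNTTC was in 10 of 27 promoters of the list (37%), against 7.73% of all genes, and in 6 of the 12 higher in duodenum. Hspd1 and Hspe1 start head to head, so the capitals in the 160 bases before each start mark 1 and the same element, read from both strands.
Hspd1, chr1:55087933-55088092, minus strand: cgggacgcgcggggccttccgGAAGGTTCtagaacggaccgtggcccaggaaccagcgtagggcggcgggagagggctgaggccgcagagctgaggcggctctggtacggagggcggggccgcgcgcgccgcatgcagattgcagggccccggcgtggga
Hspe1, chr1:55087988-55088147, plus strand: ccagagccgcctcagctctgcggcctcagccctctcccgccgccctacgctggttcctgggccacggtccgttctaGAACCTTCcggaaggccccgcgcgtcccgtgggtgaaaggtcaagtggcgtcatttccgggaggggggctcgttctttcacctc

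The unfolded protein response, which expands folding capacity of the endoplasmic reticulum, was higher in duodenum in 19 of 32 genes and in liver in 0 (1 at an unadjusted p under 0.05, 0 by DESeq2, 1 by limma). The first count was 12 without duodenum 1, duodenum 3 or duodenum 4. Herpud1, a factor of ER-associated degradation, was at 375, 371, 400.3 and 275 CPM in liver and 1475, 967, 1298 and 1307 CPM in duodenum (-1.83 ± 0.17, adjusted p = 1.22e-05). Atf4, the transcription factor of the integrated stress response, was at 70.02, 63.6, 69 and 67.4 CPM and 199, 156, 216 and 204 CPM (-1.52 ± 0.15, adjusted p = 1.83e-05), and its target Ddit3 at 11.3, 10.2, 13.4 and 12.9 CPM and 29.4, 22.8, 26.5 and 28.8 CPM (-1.17 ± 0.15, adjusted p = 0.000169). The 3 genes did not overlap between tissues. Phgdh, the first enzyme of serine synthesis, was at 17.2, 13.2, 19 and 8.32 CPM in liver and 73.8, 60.8, 83.1 and 89.3 CPM in duodenum (-2.41 ± 0.24, adjusted p = 2.64e-05), and Psat1, the next, at 20.6, 17.1, 21.3 and 21.3 CPM and 42.3, 39.4, 53.1 and 53.3 CPM (-1.23 ± 0.17, adjusted p = 0.000441). Of the 34 genes of the integrated stress response and amino acid metabolism, 11 were higher in duodenum and 3 higher in liver, among them Ass1, an enzyme of arginine synthesis, at 49.6, 50.8, 57.8 and 51.6 CPM and 14.5, 9.67, 26.9 and 19.3 CPM (1.58 ± 0.27, adjusted p = 0.00203).

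Lists of the clock and of the glucocorticoid response were called in part. Of 19 clock genes, 4 were higher in duodenum and 0 in liver (3 at an unadjusted p under 0.05, 0 by DESeq2, 1 by limma), or 1 without duodenum 4. Of 19 glucocorticoid-responsive genes, 7 were higher in duodenum and 0 in liver (4 at an unadjusted p under 0.05, 1 by DESeq2, 1 by limma), or 1 without liver 4 or duodenum 1 and 3 with the stricter filter. Per1 was at 15.9, 7.95, 6.42 and 6.35 CPM in liver and 51, 42, 38.3 and 33.3 CPM in duodenum (-2.17 ± 0.28, adjusted p = 0.000218), and the repressor Bhlhe40 at 8.88, 22.1, 21.9 and 16.9 CPM and 127, 82.2, 156 and 98.7 CPM (-2.73 ± 0.30, adjusted p = 5.12e-05). The core activators Clock (0.56 ± 0.18, 95% interval 0.17 to 0.94) and Arntl (0.06 ± 0.32, -0.62 to 0.74), the gene of BMAL1, were not called. Clock was called higher in liver without duodenum 4 (adjusted p = 0.0164), with library totals (adjusted p = 0.0173), with the stricter filter (adjusted p = 0.0289) and by limma (adjusted p = 0.0282). Tsc22d3, a glucocorticoid target, was at 366, 190.1, 177 and 184 CPM in liver and 326, 209.6, 268 and 289 CPM in duodenum, and Fkbp5, another, was at 56.3, 19.1, 20.4 and 19.6 CPM and 13.5, 10.3, 14.2 and 18 CPM. Neither was called, and for both liver 1 was far above the other liver libraries. Without liver 1, Tsc22d3 was called lower in liver (adjusted p = 0.035), and with the stricter filter Fkbp5 was called higher in liver (adjusted p = 0.0452).

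Of 76 nuclear genes of oxidative phosphorylation, 42 were higher in duodenum and 0 higher in liver (0 at an unadjusted p under 0.05, 0 by DESeq2, 1 by limma), with a median of -0.51. The count was 26 without duodenum 1, duodenum 3 or duodenum 4 and 65 without duodenum 2, and 21 without the 3 libraries with immunoglobulin reads. Of the 13 genes encoded by mitochondrial DNA, 6 were higher in duodenum (13 without duodenum 2 and 10 by DESeq2 or with the stricter filter), with mt-Nd1 at 812, 924, 1020.4 and 928 CPM in liver and 1929, 1442, 2370.3 and 2210 CPM in duodenum (-1.11 ± 0.15, adjusted p = 0.000265). In glycolysis, 8 of 34 genes were higher in duodenum (15 without duodenum 2, by DESeq2 or with the stricter filter, and 5 without liver 4, duodenum 1 or duodenum 3). In that list 1 gene was higher in liver (2 without liver 4 or pancreas 2, 5 with library totals, and 4 with the stricter filter or limma). Gapdh was at 744, 644, 803 and 689.8 CPM in liver and 1205, 1023, 1751 and 1669 CPM in duodenum (-0.97 ± 0.18, adjusted p = 0.0039), while Pfkfb3, which makes an activator of glycolysis, was the gene higher in liver, at 49.5, 81.5, 71.7 and 74.5 CPM and 26.5, 18, 23 and 25.3 CPM (1.58 ± 0.19, adjusted p = 0.000107). Neither overlapped between tissues. Of 79 genes of cytosolic ribosomal proteins, 1 was called, as higher in liver (10 with library totals or limma), and 0 were higher in duodenum (8 at an unadjusted p under 0.05, 1 by DESeq2, 0 by limma), or 3 with the stricter filter and 5 without duodenum 2. Their median of -0.08 became 0.07 when libraries were scaled by totals alone, so no direction can be given. In the actin cytoskeleton, 23 of 63 genes were higher in duodenum (35 without duodenum 2) and 7 higher in liver (4, 4 and 3 without liver 1, liver 2 and liver 3, and 3 with size factors of DESeq2 or without the 3 libraries with immunoglobulin reads). Actb was at 20733, 22780, 28022 and 21943 CPM in liver and 38193, 34691, 38942 and 45308 CPM in duodenum (-0.75 ± 0.14, adjusted p = 0.00423), while Marcksl1, which tethers actin to the membrane, was at 66.7, 88.7, 91.6 and 94.4 CPM and 35.2, 24.9, 41.6 and 23.3 CPM (1.45 ± 0.25, adjusted p = 0.00217).

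Of 60 genes of the cell cycle and replication, 18 were higher in duodenum, a count of 41 without duodenum 2, 11 without duodenum 3, 31 by DESeq2 and 32 with the stricter filter, and 1 was higher in liver (2 without liver 2). The replication genes Pcna, at 52, 58.1, 63.2 and 47.8 CPM in liver and 123, 105, 161 and 143 CPM in duodenum (-1.27 ± 0.16, adjusted p = 0.000169), and Mcm3, at 40.6, 52.7, 51.5 and 44.8 CPM and 103, 86.8, 133 and 118 CPM (-1.22 ± 0.16, adjusted p = 0.000252), were among them, with no overlap. The proliferation marker Mki67 was at 53.6, 59.2, 53.3 and 42.5 CPM in liver and 60.2, 51.4, 71.3 and 78.5 CPM in duodenum and was not called (-0.33 ± 0.16, 95% interval -0.67 to 0.02), except as lower in liver without duodenum 2 (adjusted p = 0.0496). Signalling by TGF-beta and BMP was called for 6 of 40 genes in liver and 2 in duodenum (5 without duodenum 2, 6 by DESeq2, and 1 without liver 2, liver 4, duodenum 1 or duodenum 3). Tgfbi, a secreted matrix protein that TGF-beta induces, was at 273, 215, 248 and 208 CPM and 47.7, 35.6, 47.9 and 54.7 CPM (2.34 ± 0.15, adjusted p = 4.45e-07), more than 3-fold higher in every liver library than in any duodenum library.

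Of 29 genes of cholesterol synthesis and uptake, 16 were higher in duodenum and 1 higher in liver (2 without duodenum 2 or duodenum 4), with a median of -0.93. Fdps, which makes farnesyl diphosphate, was at 89.1, 86.7, 109 and 90.6 CPM in liver and 272, 268, 321 and 277 CPM in duodenum (-1.60 ± 0.25, adjusted p = 0.00118). Hmgcs1, an early enzyme of the pathway, was at 119, 116, 106 and 109.9 CPM and 228, 205, 285 and 237 CPM (-1.08 ± 0.20, adjusted p = 0.0037). Mylip, a ubiquitin ligase gene that LXR induces, had the opposite order, at 33.1, 38, 35.9 and 35.1 CPM and 11.3, 9.8, 10.7 and 9.9 CPM (1.77 ± 0.14, adjusted p = 3.83e-06). None of these 3 genes overlapped between tissues. The transcription factor of the pathway, Srebf2, was not called (0.03 ± 0.13, 95% interval -0.24 to 0.30). A sterol response element searched as TCACNCCAC was in 1 of 21 promoters of the list, that of Hmgcs1, against 1.22% of all genes.

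Targets of the oxysterol receptor LXR and lipid handling genes were called in both directions, 8 of 41 higher in liver and 5 higher in duodenum (10 without duodenum 2, and 9 by DESeq2 or with the stricter filter). Abcg1, a cholesterol exporter, was at 334, 355, 341 and 359.6 CPM in liver and 48.2, 29.7, 47.2 and 38.7 CPM in duodenum (3.09 ± 0.17, adjusted p = 1.26e-07). Abca1, the other main exporter, was at 1.38, 0.525, 0.441 and 0.612 CPM and 0.966, 1.02, 0.489 and 0.78 CPM and was not called (-0.14 ± 0.41, 95% interval -1.02 to 0.75). Cyp8b1, a sterol hydroxylase known from bile acid synthesis, was at 44.7, 43.7, 59.9 and 45.7 CPM in liver and 2.43, 1.4, 0.927 and 2.37 CPM in duodenum (4.77 ± 0.30, adjusted p = 4.37e-07). The level of Cyp8b1 in pancreas was 34.2 ± 5.05 CPM (SD, n = 4). Hsd3b7, of the same pathway, was at 82.8, 77, 96.6 and 83 CPM and 40.01, 29.4, 44.2 and 30.5 CPM (1.24 ± 0.15, adjusted p = 0.000107). Soat1, which stores cholesterol as esters, was at 207, 254, 246 and 198 CPM and 476, 520.3, 518 and 491 CPM (-1.15 ± 0.16, adjusted p = 0.000351). Each of these called genes had separate ranges.

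Of 30 genes of retinoid metabolism and response, 7 were higher in duodenum and 4 higher in liver. Aldh1a2, the retinoic acid-producing enzyme, was at 5.65, 6.71, 4.87 and 12.3 CPM in liver and 66.1, 66.7, 94.1 and 79.6 CPM in duodenum (-3.38 ± 0.35, adjusted p = 3.41e-05). Cyp26b1, which degrades it, was at 0.572, 1.16, 3.09 and 0.809 CPM and 97.5, 83.7, 47.4 and 64.3 CPM (-5.70 ± 0.58, adjusted p = 2.90e-05), and Rarb, a receptor gene that it induces, was at 0.854, 0.723, 1.13 and 0.759 CPM and 6.63, 5.99, 4.0 and 4.83 CPM (-2.63 ± 0.31, adjusted p = 9.95e-05). All 3 were higher in every duodenum library. Bco2, which cleaves carotenoids in mitochondria, was higher in liver, at 28.8, 14.3, 12.4 and 19.2 CPM and 1.59, 0.547, 0.822 and 1.03 CPM (4.23 ± 0.36, adjusted p = 5.70e-06). Its level in pancreas was 11.5 ± 2.29 CPM (SD, n = 4).

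Tryptophan and AHR genes were higher in duodenum in 7 of 20 cases and higher in liver in 4 (2 without liver 1, liver 3, duodenum 1 or duodenum 4). Kynu, which cleaves kynurenine, was at 29, 31.6, 34.8 and 28.7 CPM in liver and 60.7, 44.9, 67.2 and 59.1 CPM in duodenum (-0.90 ± 0.17, adjusted p = 0.00372), and Kmo, which hydroxylates it, was at 63.1, 64.3, 65.7 and 55.9 CPM and 111, 72.4, 133 and 124 CPM (-0.82 ± 0.16, adjusted p = 0.00609). Il4i1, an amino acid oxidase of mature DCs, was at 32.7, 74.1, 65.3 and 71.1 CPM and 13.7, 17.9, 17 and 14.7 CPM (1.94 ± 0.27, adjusted p = 0.000386). Within liver, Il4i1 was again lowest in liver 1, though still above every duodenum library.

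Lipid mediators and metabolite receptors were called in both directions, 11 of 55 higher in liver and 10 higher in duodenum. Alox5ap, the partner of 5-lipoxygenase, was at 654, 588, 645 and 592 CPM in liver and 168, 94.8, 136 and 147 CPM in duodenum (2.18 ± 0.15, adjusted p = 1.20e-06). The lipoxygenase gene itself, Alox5, stayed at or below 2.02 CPM and was not called (-1.03 ± 0.44, 95% interval -1.97 to -0.09). Ltc4s, which makes leukotriene C4, was at 3.39, 3.86, 2.54 and 2.99 CPM and 19.2, 22.1, 17.8 and 22.1 CPM (-2.67 ± 0.22, adjusted p = 4.86e-06). Hpgds, a prostaglandin D2 synthase, was at 6.46, 1.75, 5.17 and 2.55 CPM and 24.5, 28.2, 33.7 and 36.2 CPM (-2.94 ± 0.39, adjusted p = 0.000275). P2ry6, a UDP receptor, was at 83.2, 78.9, 109.8 and 66.8 CPM in liver and 10.4, 8.34, 12.1 and 7.85 CPM in duodenum (3.13 ± 0.20, adjusted p = 4.45e-07), and Adora3, an adenosine receptor, was at 61.4, 51, 46 and 49.3 CPM and 9.63, 8.65, 15.9 and 6.93 CPM (2.34 ± 0.23, adjusted p = 2.41e-05). Alox5ap, Ltc4s, Hpgds, P2ry6 and Adora3 had separate ranges. Pla2g7, a secreted phospholipase, was called with overlapping ranges, at 0.688, 1.29, 0.752 and 1.24 CPM and 4.94, 1.03, 12.1 and 9.1 CPM (-2.78 ± 0.63, adjusted p = 0.0136).

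Genes of iron handling were higher in liver in 4 of 25 cases and higher in duodenum in 0 (3 at an unadjusted p under 0.05, 2 by DESeq2, 0 by limma), or 5 without duodenum 2. Hfe, a regulator of iron uptake, was at 242, 279, 290.4 and 233 CPM in liver and 64.4, 60.6, 58.7 and 65.2 CPM in duodenum (2.07 ± 0.18, adjusted p = 9.05e-06), and Slc11a1, which exports iron from phagosomes, was at 61.8, 40.6, 49.4 and 36.1 CPM and 6.5, 5.41, 8.97 and 6.84 CPM (2.76 ± 0.25, adjusted p = 9.09e-06). For survival and cell death, 7 of 33 genes were higher in liver (4 without the 3 libraries with immunoglobulin reads) and 3 higher in duodenum (6 without duodenum 2, and 7 by DESeq2 or with the stricter filter). Gsdmd, the pore former of pyroptosis, was at 139.7, 137, 143 and 122 CPM in liver and 53.2, 44.1, 68.9 and 62.7 CPM in duodenum (1.24 ± 0.15, adjusted p = 0.000144). Cdkn1a, the p53 target p21, was at 37.6, 60.7, 59.2 and 64.7 CPM and 17.8, 17.4, 22.3 and 20.02 CPM (1.52 ± 0.19, adjusted p = 0.000168). Bcl2, an anti-apoptotic gene, was at 15.1, 8.87, 9.83 and 9.47 CPM and 19.8, 23.9, 31.4 and 30.03 CPM (-1.28 ± 0.23, adjusted p = 0.00286), so liver had more of the first pair and less of Bcl2.

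Transcripts of other cells were present at tissue-dependent levels. The 30 hepatocyte markers summed to 335, 262, 247 and 208 CPM in liver and 59.6, 61.2, 54.1 and 50.7 CPM in duodenum, and 21 of them were higher in liver, with 0 higher in duodenum (0 at an unadjusted p under 0.05, 0 by DESeq2, 0 by limma). Most of the sum was Trf (transferrin), at 220.2, 184, 163 and 138 CPM in liver and 50.4, 48.8, 46.2 and 40.2 CPM in duodenum. Trf was higher still in pancreas, at 415 ± 31.7 CPM (SD, n = 4). Without Trf the sums were 115, 77.8, 84.1 and 69.8 CPM and 9.19, 12.4, 7.88 and 10.5 CPM. Alb, the defining gene of hepatocytes, was at 14.6, 8.74, 10.1 and 10.7 CPM in liver and 0.35, 0.516, 0.206 and 0.155 CPM in duodenum (5.16 ± 0.58, adjusted p = 7.08e-05). The part of hepatocyte RNA in the liver levels of Mup7, Mup22, Bco2 and Cyp8b1 was not tested.

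Plasma cell transcripts had the reverse order. The 16 markers summed to 252, 735, 268 and 223 CPM in liver and 8742, 11390, 8920 and 13010 CPM in duodenum, and 12 of them were higher in duodenum and 0 in liver (0 at an unadjusted p under 0.05, 0 by DESeq2, 0 by limma). Igha, the heavy chain of IgA, was at 0.0631, 0.162, 0.222 and 0.242 CPM in liver and 4431, 6486, 4832 and 6404 CPM in duodenum (-14.98 ± 1.07, adjusted p = 9.09e-06). Liver 2 had a higher sum than the other liver libraries. Plasma cells are rich in folding genes, and their part in the levels of the unfolded protein response was not tested. In pancreas 1 to 4, of which 3 and 4 held more immunoglobulin reads, Herpud1 was at 276, 329.6, 416 and 390.3 CPM. The summed list of the unfolded protein response was at 4800, 5603, 6261 and 5618 CPM there. In liver 1 to 4 that summed list was at 6352, 6757, 7059 and 5596 CPM. The 22 T cell markers summed to 22.9, 22.9, 21.8 and 28.3 CPM in liver and 48.2, 42.5, 43.9 and 39 CPM in duodenum, with Cd3e at 0.699 CPM at most. The list was higher in duodenum for 5 genes and in liver for 0 (2 at an unadjusted p under 0.05, 1 by DESeq2, 1 by limma), or 1 without pancreas 2. Its member with the highest mean was Cd8b1 in duodenum and Cd3d in liver, and a presence of T cells was not tested. The 22 macrophage markers overlapped, with sums of 312, 245, 308 and 278 CPM and 330.4, 221, 365 and 356 CPM, 4 genes higher in liver and 2 higher in duodenum (1 without liver 2, liver 4, duodenum 1, duodenum 3 or duodenum 4). The Kupffer cell genes Clec4f and Vsig4 were at or below 1.91 and 0.731 CPM. The 16 neutrophil markers summed to 16.1, 17.2, 14.4 and 16.9 CPM and 40.1, 44.5, 45.5 and 38.6 CPM, and 1 of them, Il1r2, was called (2 without duodenum 3 or duodenum 4). Most of the duodenum sum was Il1r2, with a mean of 26 CPM there and 0.997 CPM in liver. The sum is therefore mainly a reading of that gene, and a presence of neutrophils was not tested.

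The remaining lists of other cells had at most 5 called genes each, which was 31.2% of the monocyte and of the plasmacytoid DC markers. Sums of endothelial markers were 54 to 64.8 CPM in liver and 85.1 to 117.6 CPM in duodenum. Those of B cell markers were 76.9 to 93.7 CPM in liver and 43.7 to 59.8 CPM in duodenum. Intestinal epithelium had 4 of 30 markers higher in duodenum and 1 higher in liver, endothelium 1 of 18 in each direction, stroma 1 of 17 higher in liver, monocytes 3 of 16 higher in liver and 2 higher in duodenum, and B cells 1 of 14 and 2 of 14. Plasmacytoid DCs had 2 of 16 markers higher in liver and 3 higher in duodenum (1 without liver 3 or duodenum 1). Erythroid cells and platelets had 1 of 13 higher in liver and 0 in duodenum (1 without liver 4, duodenum 1 or pancreas 2). Their sum was 3.63, 4.86, 7.12 and 8.84 CPM in liver and 6.5, 7.49, 135 and 7.13 CPM in duodenum. Duodenum 3 stood apart from the other libraries, and Hba-a2, a haemoglobin gene, was at 0.0266, 0.0737, 0.15 and 0.197 CPM in liver and 0.0568, 0.518, 61 and 0.0517 CPM in duodenum. No marker of pancreatic acinar cells, of NK cells and innate lymphoid cells or of mast cells was called by edgeR. In reduced sets of libraries, 2 acinar markers were higher in duodenum without duodenum 2 and 1 without pancreas 2, and 1 NK marker was higher in liver without liver 1. In these 3 lists 5, 2 and 0 markers had an unadjusted p under 0.05, DESeq2 called 4, 1 and 0, and limma 0, 1 and 0.

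**Figure D5:**
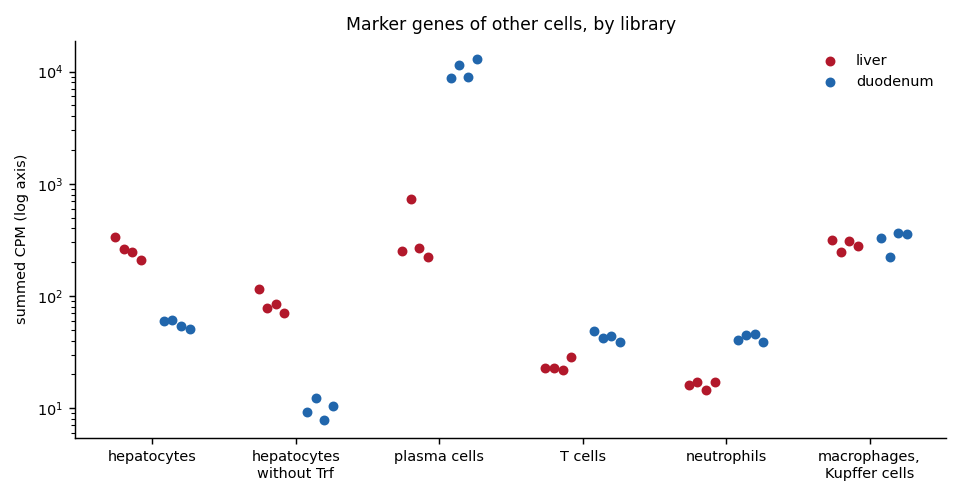
Summed CPM of marker lists of other cells in each liver and duodenum library (log axis), 1 point per library. Hepatocyte markers are higher in every liver library, plasma cell, T cell and neutrophil markers are higher in every duodenum library, and macrophage markers overlap. Most of the neutrophil sum in duodenum is Il1r2, and the T cell marker with the highest mean there is Cd8b1.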

How the data were processed

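Bulk RNA-sequencing of sorted cDC1 was analysed from tables that the submitters made with kallisto against GRCm39, per the submitters' processing notes. The deposited values are estimated counts per gene and TPM, and no version or annotation is stated there. In genes above 1 TPM in every library, the deposited counts were a gene factor times a library factor times TPM (largest deviation 1.1e-09 on the log2 scale). They may therefore have been rebuilt from TPM, in which case totals and edgeR's tests reflect scaled abundances and not reads as counted. The estimated counts were rounded to whole numbers. CPM were computed from the deposited counts with TMM factors. No row lacked a gene name.

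Groups came from the sample labels. Genes were kept with filterByExpr (minimum count 10), which left 44624 of 55401, and tested with edgeR 4.0.16 (R 4.3.3, robust quasi-likelihood F test) in 1 model of all 12 libraries, contrast liver minus duodenum. The SE is the log2 difference over the square root of F. Libraries pooled 2 mice each, so p-values measure the spread between pools. Intervals are 95% intervals of the difference. The fit was checked on simulated counts.

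The members and gene lists were chosen with earlier results of these data known. Genes were named by a rule. It took, in each direction, the 12 called genes that differed most on the log2 scale (at least 10 CPM in the higher tissue, no overlap between tissues), the 8 with the largest difference of mean TPM, and up to 4 called members per list. It added the sort markers, Xcr1, Clec9a, Irf8, Batf3 and the top marker of each other cell. Some genes that the rule took are not reported here. These genes were chosen after their values were seen: Abca1, Alb, Alox5, Arntl, Cd274, Cd3e, Cd40, Cd74, Cd80, Cd83, Cd86, Ciita, Clec4f, Clock, Csf2rb2, Fkbp5, H2-Aa, H2-Eb1, Hba-a2, Hmgcs1, Hsd3b7, Hspd1, Hspe1, Ifi203, Ifi207, Ifi211, Ifit1, Ifit3, Il21r, Il6ra, Irf4, Isg15, Itgb2, Itgb7, Kmo, Kynu, Mki67, Nfkb2, Ppp1r15a, Psat1, Psmb8, Psmb9, Sirpa, Srebf2, Tap1, Tapbp, Tcf4, Tlr3, Trf, Tsc22d3, Vsig4, Wdfy4 and Zeb2.

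Alternatives were DESeq2 1.42.0, other scaling and filters, limma 3.58.1 on log2 TPM with a pseudocount of 1 or 0.1, a test against a 1.5-fold change, a replicate block, each library left out, and 2 sets of libraries left out together. Leaving out immunoglobulin, mitochondrial and CT010467.1 rows was added after seeing the data. Limma counts in the report use the pseudocount of 1. Promoters came from RefSeq (GRCm38.p6), 250 bases before each start.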

Additional observations from a re-analysis of the deposited data

Results flagged for a closer look

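In each group of 4 libraries, a library was singled out where its gap to the nearest of the others took more of the group's range than Dixon's 95% critical value allows. This was done for the genes and marker sums of the report. 26 of 392 groups (6.63%) had such a library, where chance flags about 1 in 20 groups.

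Duodenum 1 stood apart in Cpm at 18.4 CPM (others 11.8 to 11.9). Duodenum 2 stood apart in Cd86 at 156 CPM (others 239 to 254), H2-K1 at 953 CPM (others 1186 to 1212), Klf4 at 135 CPM (others 208 to 214), Lgmn at 13.3 CPM (others 19.4 to 20.6) and Mup22 at 0.101 CPM (others 0). Duodenum 3 stood apart in Cd274 at 19.8 CPM (others 8.84 to 10.6), Fdps at 321 CPM (others 268 to 277), Hba-a2 at 61.04 CPM (others 0.0517 to 0.518), Srebf2 at 126 CPM (others 98.1 to 102) and the summed erythroid and platelet markers at 135 CPM (others 6.5 to 7.49). Duodenum 4 stood apart in Itgal at 6.37 CPM (others 7.84 to 8.14). Liver 1 stood apart in Bcl2 at 15.1 CPM (others 8.87 to 9.83), Fkbp5 at 56.3 CPM (others 19.1 to 20.4), Itgal at 116 CPM (others 88.1 to 92.7), Per1 at 15.9 CPM (others 6.35 to 7.95) and Tsc22d3 at 366 CPM (others 177 to 190.1). Liver 2 stood apart in Serpinb6b at 253 CPM (others 183 to 192) and the summed plasma cell markers at 735 CPM (others 223 to 268). Liver 3 stood apart in Clec4f at 1.91 CPM (others 0.249 to 0.301), Cyp8b1 at 59.9 CPM (others 43.7 to 45.7) and Il1r2 at 0.418 CPM (others 1.13 to 1.23). Liver 4 stood apart in Cnr2 at 24.2 CPM (others 31.8 to 33.2), Ifi211 at 151 CPM (others 175 to 177), Itgam at 3.42 CPM (others 1.05 to 1.21) and Tcf4 at 24.1 CPM (others 34.6 to 36.4). No explanation of these values was tested.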

How the results depend on the processing

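Against 3265 genes called, DESeq2 called 5133, with 3155 higher in duodenum. Library totals gave 2642 genes higher in liver, and limma on TPM gave 2592 with a pseudocount of 1 and 2724 with 0.1. The test against a 1.5-fold change left 1074 genes, 539 higher in liver and 535 higher in duodenum. Without liver 2, pancreas 3 and pancreas 4 there were 2069 called and 839 higher in liver. Without duodenum 2 and pancreas 1 there were 4913 called and 3386 higher in duodenum. Leaving out 1 library gave 2397 to 4807 called genes, 969 to 1539 higher in liver and 1231 to 3268 higher in duodenum. The highest count in each direction came without duodenum 2, the lowest without duodenum 1 (called), liver 2 (higher in liver) and duodenum 3 (higher in duodenum). The cause of these changes was not tested, except that a fold threshold lowers the count by construction.

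Libraries of the tissues share replicate numbers, but deviations from the group means correlated at 0.02, 0.08, 0.11 and -0.04 for the same number, so the numbers were not taken as pairs. A fit with the replicate block called 2931 genes, 1304 higher in liver and 1627 higher in duodenum. Over all alternatives, 4429 values of the named genes were counted as unchanged. For called genes this means the same direction and call. For genes not called, a change of sign also counted as unchanged, and Arntl, for example, ran from -0.232 to 0.213. The call was lost in 31 values, most of them in the 1.5-fold test, and gained in 31. Genes that lost their call in the 1.5-fold test included Actb, B2m, Calr, Ccl17, Ccr9, Cd300a, Cd40, Cdh1, Gapdh, H2-D1 and H2-K1. Hmgcs1, Hspd1, Hspe1, Id2, Itgae, Kmo, Kynu, Lgmn, Nfkbia, Serpinb6b, Tlr12 and Tmsb4x lost theirs in it as well. A called direction was never reversed.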
